A study of Mus musculus with 16 samples.

Results

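E2f4 was called at 216 of 2166 regions (9.97%) in each of 4 chromatin immunoprecipitation and sequencing (ChIP-seq) libraries from regenerating mouse liver. Of these shared regions, 205 lay at a protein-coding gene start, or at either annotated end where no start is listed. Among the 245 genes there, 48 were in a list of mitosis and G2/M, 12 in one of DNA replication, 13 in one of DNA repair, and 141, with 13 histone genes among them, were in none of the lists. A region is a stretch of overlapping E2f4 peaks (at least 1 shared base), and a region counted as shared when it held a peak of both WT libraries and of both KO libraries. The regions were thus chosen by the peak calls, so the strength of their peaks is a description and carries no test. WT mice were Arid1a Fl/Fl, and KO mice were Arid1a Fl/Fl; Alb-cre, so that both genotypes carried the floxed alleles and KO added Cre driven by the promoter of albumin, a gene of hepatocytes. Mice of both genotypes were of the C57/B6 and 129 mix, at postnatal day 90, and their livers were taken 40 h after partial hepatectomy and frozen. E2f4 had 2 libraries per genotype, and the histone marks H3K4me2 and H3K27ac had 1 library per genotype each. The labels do not say that the E2f4 replicates came from separate animals.

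E2f4 is an E2F family member without a strong activating domain of its own. In resting cells it sits with the pocket proteins p107 and p130 and with the MuvB proteins in the DREAM complex, which represses cell cycle genes, and it gives way to activating E2Fs, B-Myb and FoxM1 as cells cycle. E2F proteins recognise E2F sites, typical of genes of DNA synthesis, and MuvB recognises the cell cycle genes homology region (CHR), typical of genes of mitosis. Partial hepatectomy brings quiescent hepatocytes back into the cell cycle. Arid1a belongs to SWI/SNF, a complex that moves nucleosomes. H3K4me2 lies on promoters and enhancers, and H3K27ac on those that are active.

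The promoters with the strongest shared regions and a short match next to the E2f4 centre (the median of the summits) are shown in 120 bases each. Some hold a single kind of element, E2F or CHR, and some hold both. Sequences are RefSeq promoters of build GRCm38.p6, whose coordinates are those of mm10, written 5′ to 3′ on the gene's strand. Capitals mark matches, on either strand, to an E2F-type word (TTTNNCGC, where N is any base) or a CHR-type word (TTTGAA, which reads TTCAAA on the other strand). The first promoters hold a CHR-type word within 25 bp of the centre and no E2F-type word in the listed promoter. They are chr3:88081959-88082078 (plus strand) for Iqgap3, chr3:159495362-159495481 (plus strand) for Depdc1a, chr6:124830106-124830225 (plus strand) for Cdca3, chr9:83834619-83834738 (plus strand) for Ttk, chr7:135716436-135716555 (minus strand) for Mki67 and chr10:88146897-88147016 (plus strand) for Nup37. Iqgap3 encodes a scaffold protein, Depdc1a, Ttk and Cdca3 act in mitosis, Mki67 encodes the proliferation marker Ki-67, and Nup37 encodes a nuclear pore protein. The CHR-type match lay 2.5 bp from the centre at Depdc1a and at Mki67.
Iqgap3: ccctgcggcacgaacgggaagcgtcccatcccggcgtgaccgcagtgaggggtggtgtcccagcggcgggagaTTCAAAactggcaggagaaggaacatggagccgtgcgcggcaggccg
Depdc1a: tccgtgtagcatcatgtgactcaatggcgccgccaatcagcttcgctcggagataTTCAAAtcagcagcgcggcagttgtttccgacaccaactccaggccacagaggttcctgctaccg
Cdca3: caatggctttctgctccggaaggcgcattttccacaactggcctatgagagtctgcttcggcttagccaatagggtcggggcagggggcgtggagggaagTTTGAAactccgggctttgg
Ttk: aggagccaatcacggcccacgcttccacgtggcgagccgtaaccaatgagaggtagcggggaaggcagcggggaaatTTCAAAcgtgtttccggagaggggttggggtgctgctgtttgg
Mki67: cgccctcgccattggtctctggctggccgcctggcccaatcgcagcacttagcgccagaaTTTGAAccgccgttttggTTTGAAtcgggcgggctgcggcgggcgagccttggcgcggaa
Nup37: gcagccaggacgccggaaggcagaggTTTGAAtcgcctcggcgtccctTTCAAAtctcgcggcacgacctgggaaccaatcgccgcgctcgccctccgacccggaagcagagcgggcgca

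The strongest promoters with an E2F-type word within 25 bp of the centre and no CHR-type word, 1 per region, are chr13:22035594-22035713 (minus strand) for H2ac12, chr9:65890253-65890372 (plus strand) for Pclaf, chr1:20820263-20820382 (minus strand) for Mcm3, chr16:87432651-87432770 (minus strand) for Ltn1, chr16:90727322-90727441 (minus strand) for Mis18a and chr13:23761294-23761413 (minus strand) for H4c1. Mcm3 is a subunit of the replicative helicase, Pclaf encodes a partner of the sliding clamp PCNA, Mis18a helps to load the centromeric histone, Ltn1 encodes a ubiquitin ligase of stalled ribosomes, and H2ac12 and H4c1 encode core histones. The match lay 0.5 bp from the centre at Pclaf. In H4c1 the stretch held 3 such words, and in Mcm3 it held 2.
H2ac12: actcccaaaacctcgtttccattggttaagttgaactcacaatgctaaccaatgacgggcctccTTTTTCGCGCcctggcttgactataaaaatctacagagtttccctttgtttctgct
Pclaf: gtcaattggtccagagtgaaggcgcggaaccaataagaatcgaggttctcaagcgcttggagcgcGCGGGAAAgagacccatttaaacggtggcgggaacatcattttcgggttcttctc
Mcm3: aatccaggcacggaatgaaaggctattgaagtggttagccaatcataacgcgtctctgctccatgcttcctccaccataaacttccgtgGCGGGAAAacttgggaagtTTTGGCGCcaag
Ltn1: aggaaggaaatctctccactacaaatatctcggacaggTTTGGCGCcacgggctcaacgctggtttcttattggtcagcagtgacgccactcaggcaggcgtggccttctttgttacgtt
Mis18a: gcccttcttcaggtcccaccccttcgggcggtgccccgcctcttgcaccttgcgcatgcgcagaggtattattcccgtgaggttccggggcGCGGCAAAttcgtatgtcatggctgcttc
H4c1: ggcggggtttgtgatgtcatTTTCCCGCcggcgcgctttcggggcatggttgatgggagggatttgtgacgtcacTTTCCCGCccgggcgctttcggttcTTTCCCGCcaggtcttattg

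Both kinds of word stood within 50 bp of the centre in the promoters of E2f3, an activating E2F, Cdca5, the cohesin protector sororin, and Fam76b. Their stretches are chr13:29986022-29986141 (minus strand) for E2f3, chr19:6085008-6085127 (plus strand) for Cdca5 and chr9:13827534-13827653 (plus strand) for Fam76b. At E2f3 the stretch held 1 word of each kind, and at Cdca5 it held 1 E2F-type and 2 CHR-type words.
E2f3: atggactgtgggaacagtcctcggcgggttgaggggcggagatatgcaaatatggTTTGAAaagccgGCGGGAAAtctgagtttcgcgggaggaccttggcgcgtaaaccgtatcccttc
Cdca5: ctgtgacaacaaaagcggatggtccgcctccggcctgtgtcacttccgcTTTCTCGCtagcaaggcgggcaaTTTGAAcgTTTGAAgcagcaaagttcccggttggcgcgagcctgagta
Fam76b: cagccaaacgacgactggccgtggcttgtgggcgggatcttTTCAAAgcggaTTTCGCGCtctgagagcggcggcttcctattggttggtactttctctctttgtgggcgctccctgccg

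Some of the strongest promoters held neither word. Bub1, a spindle checkpoint kinase, and Rrm2, a ribonucleotide reductase subunit, are shown for contrast, at chr2:127831810-127831929 (minus strand) for Bub1 and chr12:24708120-24708239 (plus strand) for Rrm2. That no match was found says only that these letters are not in the listed promoter.
Bub1: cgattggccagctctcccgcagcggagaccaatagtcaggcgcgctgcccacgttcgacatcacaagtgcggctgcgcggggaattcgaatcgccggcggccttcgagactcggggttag
Rrm2: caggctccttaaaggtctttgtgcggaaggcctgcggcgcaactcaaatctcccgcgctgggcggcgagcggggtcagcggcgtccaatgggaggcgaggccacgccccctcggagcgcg

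The shared regions were stronger at the median than the lists they came from, and they took very different parts of those lists. The WT lists held 1791 and 1058 peaks and the KO lists 287 and 683, and the 216 regions made up 12.1%, 20.4%, 75.3% and 31.6% of those peaks. Each region held exactly 1 peak of each library. The number of reads is not recorded in the lists, so the depth is unknown. KO replicate 1, with the shortest list, set the membership. Requiring the other 3 libraries alone gave 552 regions, whereas leaving out any of the other 3 libraries gave 216 to 220.

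**Figure D1:**
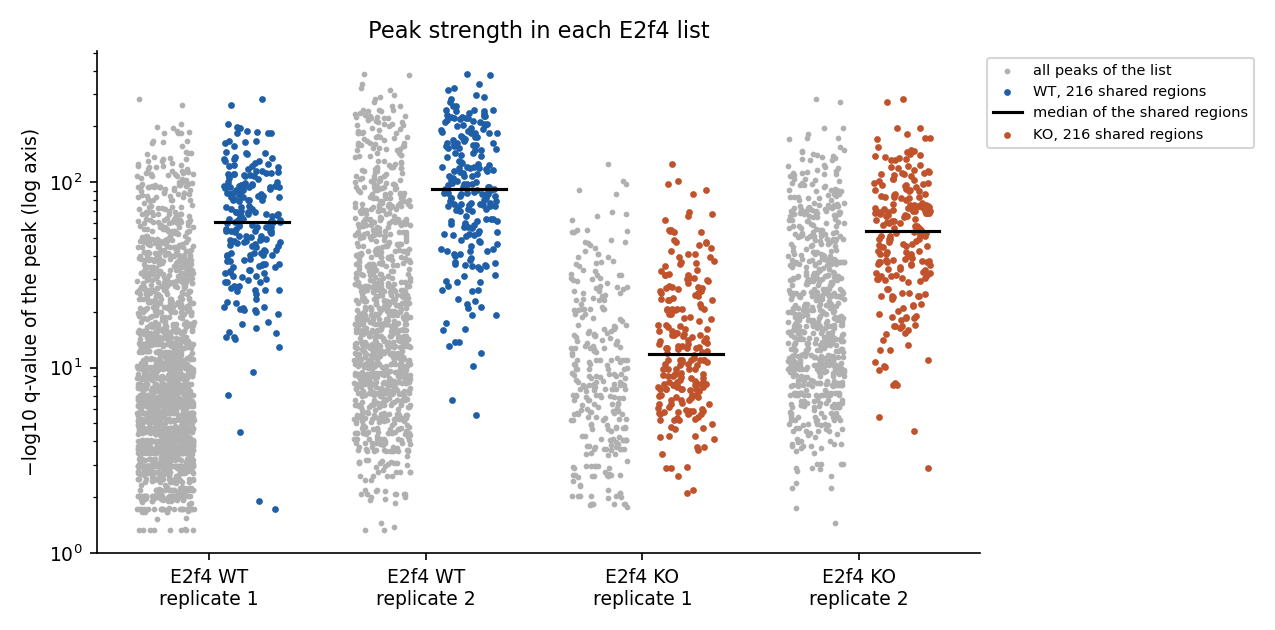
The −log10 q-value of each peak (log axis) in the 4 E2f4 lists, with all peaks of a list as grey points and the 216 shared regions as coloured points whose median is a black bar. The medians of the shared regions were 60.9 and 91.6 for WT, 11.9 and 54.7 for KO, each above the median of its whole list.

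The median −log10 q-value of the shared regions was 60.9 in WT replicate 1, 91.6 in WT replicate 2, 11.9 in KO replicate 1 and 54.7 in KO replicate 2, against 6.76, 16.0, 8.40 and 18.0 over all peaks of those lists. The median fold enrichment over background, the authors' value for each peak, was 22.4, 31.7, 9.38 and 16.2. The order of the 216 regions was broadly alike between libraries, and least so between KO replicate 1 and the others. Spearman's rho between their ranks was 0.83 for the WT pair, 0.70 for the KO pair, and 0.69 to 0.85 between genotypes. These correlations are over regions that passed in all 4 lists and are given as a description. Values of different lists move with depth and enrichment, so no change between genotypes is read from them.

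One region headed every list. It lies at chr9:44334246-44334717 next to H2ax, the histone variant phosphorylated at DNA breaks, and Dpagt1, an enzyme of protein glycosylation. Its −log10 q-values were 280.0, 385, 125 and 279 in WT replicates 1 and 2 and KO replicates 1 and 2 (the order used for all 4 values below), and its fold enrichments were 72.4, 110.4, 40.0 and 61.6. The E2f3 region (chr13:29985697-29986247) followed with −log10 q-values of 195, 316, 91.1 and 272, and ranked 5, 5, 4 and 2. The region at the kinesin gene Kif20a and at Brd8 ranked 9, 3, 2 and 3. The histone H3 gene H3c8 (chr13:23534914-23535636) ranked 4, 4, 7 and 6. The ranks of these 4 regions were within the first 10 of every list.

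The rest of the strongest 12 regions served mitosis and a few other genes. Iqgap3 (chr3:88081867-88082370) ranked 2, 9, 9 and 11, and Bub1 (chr2:127831476-127832019) ranked 8, 2, 16 and 7. The region between Cdca5 and Zfpl1 (chr19:6084851-6085500) ranked 10, 8, 6 and 15. Depdc1a (chr3:159495263-159495597) had −log10 q-values of 157, 247, 66.1 and 172. Msh5 (chr17:35046658-35047112), a MutS homologue of meiosis, ranked 12, 10, 22 and 5. The divergent histone pair H2ac12 and H2bc12 ranked 3, 25, 3 and 23, far apart within each genotype. Ttc32 ranked 26, 13, 13 and 4, and the region at Cdca3 and Usp5 ranked 14, 18, 29 and 10.

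The weakest shared regions were weak in most lists. A region inside Fmo1, a liver monooxygenase gene (chr1:162854403-162854675), ranked 1754, 402, 203 and 625. Ran, the GTPase of nuclear transport (chr5:129019828-129020565), ranked 1746, 376, 193 and 556, and its 4 summits were spread over 617 bp. Ccnf, encoding cyclin F, had −log10 q-values of 7.16, 5.57, 4.67 and 2.88. The antiviral gene Zc3hav1 had 4.48, 16.0, 2.19 and 4.58, and Trim27 had 15.4, 6.71, 5.82 and 10.1. Just inside the rule stood the Fmo1 region (1.73 in WT replicate 1), Ran (1.90 in WT replicate 1) and E2f8 (2.12 in KO replicate 1). Just outside stood Ndc80, a kinetochore gene (117, 151 and 65.0 in the other 3 libraries), Uhrf1 (120.3, 139 and 67.8) and Haspin (87.0, 104 and 23.0), none of which had a peak in KO replicate 1. The regions just inside were picked by the lowest −log10 q-value in any library. Those just outside were picked by the best mean WT rank among regions of both WT lists and 1 KO list. Their higher values in the other 3 libraries thus follow from how they were picked.

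Nearly all shared regions lay at a gene start. For genes without a listed start, either annotated end was counted as a start, so some may be the far end of the gene. A protein-coding gene start, so defined, lay within 1000 bp of the centre of 205 of 216 regions (94.9%, exact binomial 95% interval 91.1 to 97.4, counting error only). The share was 90.9% of the 340 regions of both WT lists and 1 KO list, 86.0% of the 236 regions of both WT lists and no KO list, and 69.7% of all regions. No test was made of these differences. The 170 regions whose nearest gene had a listed start and strand were centred at a median of 10 bp upstream of it, and 114 of them (67.1%) were within 100 bp. Of these centres, 98 lay upstream of the start, 3 at it and 69 downstream.

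The summits of the 4 libraries were close together. The range of the strongest summits over the libraries had a median of 26 bp (quartiles 15 and 42), and it was at most 50 bp in 181 regions (83.8%). WT summits were a median of 10 bp apart between replicates, KO summits 12 bp, and summits of a WT and a KO library 9 to 15 bp. In 8 regions the range was over 100 bp.

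The 11 regions without such a start were few and mostly close to a gene. At 5 of them the outer end of the annotated gene lay within 1000 bp, namely Kif2c (1 bp away) and Kif14 (43 bp), which encode mitotic kinesins, Timeless (176 bp), a replication fork gene, Pkn3 (134 bp) and Mamstr (293 bp). Counting these ends raised the share to 97.2%. The region at chr4:116626610-116626898 lay inside Nasp, a histone chaperone gene, 1191 bp from its end. The region at chr13:21779411-21779647 lay 1097 bp from the linker histone gene H1f5. A region inside Fam210b was 4323 bp from its end, and a region at the non-coding gene Kif16bos was 1394 bp from Kif16b. Over 10000 bp from any protein-coding gene start lay 2 regions, the Fmo1 region (12098 bp) and the region at chr13:22022308-22022575, which holds the serine tRNA gene n-TScga1 (12696 bp from Prss16).

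Regions placed within 1000 bp of at least 2 protein-coding genes, called shared promoters here, made up 40 of the 216 regions (18.5%, interval 13.6 to 24.4). The share was 18.5% and 16.9% in the like classes, so these values did not set the shared regions apart. For 27 pairs both starts and strands are listed. In 24 of these 27 the genes pointed away from each other, with a median of 163 bp between starts (44 to 614). In the 3 others they pointed toward each other, from starts 230 to 451 bp apart. In the remaining 13 pairs at least 1 gene was placed by an annotated end, which may not be its start. Trip13, a spindle checkpoint ATPase, and Brd9, a SWI/SNF subunit, were 44 bp apart, and the region (chr13:73937630-73937939) ranked 87, 53, 96 and 40. Nup37 and Parpbp were 51 bp apart, Smc6 and Gen1, both of DNA repair, 79 bp, and Kif15 and 1110059G10Rik 81 bp. Brca1 and its neighbour Nbr1 were 152 bp apart, with E2f4 centred 63 bp from Brca1 and 215 bp from Nbr1. The table does not say which gene of a pair E2f4 acts on.

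Other strong shared promoters paired a cell cycle gene with a gene of another function. Mastl, the Greatwall kinase, was 481 bp from Yme1l1, a mitochondrial protease, and Cenpn, a centromere gene, was 304 bp from Cmc2. Cks1b, a cyclin-dependent kinase subunit, was 260 bp from Shc1, and the centrosome gene Cep57 was 609 bp from Fam76b. At Foxm1, the transcription factor of the G2 to M programme, the same region lay next to Rhno1 and ranked 16, 31, 24 and 91.

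Mitotic genes were the largest group among the lists, and theirs was the longest list. The lists were chosen with earlier results of these data known, so the shares are a description. In all 245 of 21900 protein-coding genes (1.12%) had a shared region at a start, or at an annotated end where no start is listed. Of 95 genes in a list of mitosis and G2/M, 48 (50.5%) had one, 29 more had a region of both WT lists and 1 KO list, and 6 a region of both WT lists and no KO list. Kinesins had 5 of 13 (38.5%), namely Kif15, Kif18b, Kif20a, Kif22 and Kif23. The shared regions at the outer ends of Kif2c and Kif14 are not in this count. Members of the mitotic list covered kinases (Aurkb, Bub1, Cdk1, Melk, Nek2, Plk1, Plk4, Ttk), the kinetochore and centromere (Cenpf, Cenph, Cenpk, Cenpn, Knl1, Mis12, Spc25, Spdl1), the chromosomal passenger complex (Birc5, Cdca8, Incenp) and cytokinesis (Anln, Ect2, Prc1, Racgap1). Ttk ranked 11, 7, 24 and 45, and Cdk1, the mitotic cyclin-dependent kinase, ranked 68, 94, 94 and 46. Cyclin B was split, since Ccnb2 had a shared region and Ccnb1 had a region of both WT lists and 1 KO list. Without KO replicate 1, 77 of the 95 mitotic genes had a region called in the other 3 libraries.

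**Figure D2:**
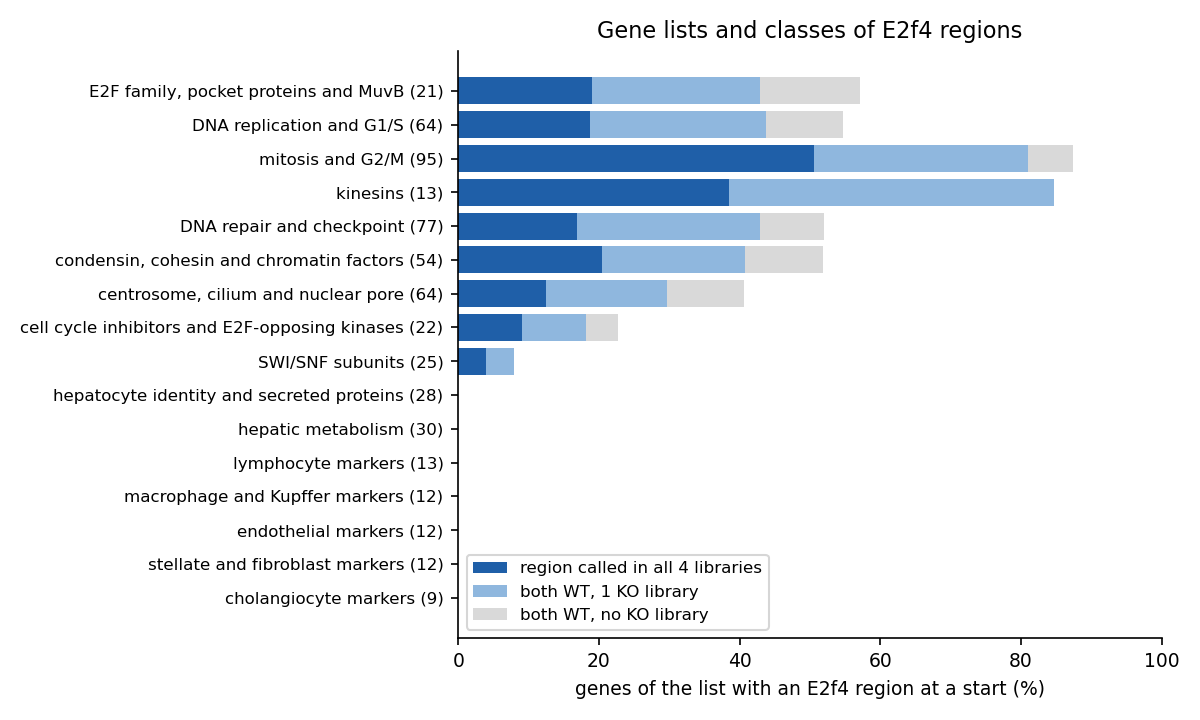
The share of each gene list (number of genes in brackets) with an E2f4 region within 1000 bp of a start, or of an annotated end where no start is listed. Bars are split into regions called in all 4 libraries and the 2 most like classes. The mitosis and kinesin lists reach furthest, and no gene of the 7 liver and cell type lists had a region of any of these classes.

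Replication and repair genes were less completely covered by shared regions. Of 64 genes of DNA replication and G1/S, 12 (18.8%) had one, and 28 without KO replicate 1. Rrm2 (chr12:24708021-24708349) ranked 45, 6, 26 and 20. Gins3, a helicase subunit, ranked 77, 43, 45 and 29, and Mcm3 ranked 86, 37, 47 and 25. Cdc7, the kinase that fires origins, ranked 42, 47, 15 and 98, and its partner gene Dbf4 had a shared region too. Clspn, encoding the checkpoint mediator claspin, ranked 47, 96, 84 and 86, and Rrm1 ranked 150, 89, 98 and 93. Pcna, the sliding clamp, ranked 355, 576, 147 and 286, and Ccne1, encoding cyclin E1, ranked 421, 440, 201 and 186, so that both were weak members. Of the MCM helicase genes only Mcm3 was in all 4 lists, while Mcm4, Mcm5 and Mcm7 had regions of both WT lists and 1 KO list.

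Of 77 genes of DNA repair and checkpoint, 13 (16.9%) had a shared region, and 33 without KO replicate 1. Neil3, a DNA glycosylase, ranked 60, 15, 14 and 18. Brca1 ranked 21, 29, 62 and 67, and Brca2, Bard1 and Brip1, which work with it in homologous recombination, had shared regions as well. Gen1 and Smc6 shared a region that ranked 48, 88, 59 and 32. Mms22l ranked 68, 33, 128 and 55, and Rad54b ranked 122, 56, 49 and 79.

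Among the E2F, pocket protein and MuvB genes, 4 of 21 (19.0%) had a shared region. These were E2f3, Foxm1, Mybl2 (ranks 153, 151, 139 and 133), which encodes B-Myb, and E2f8 (221, 323, 271 and 342), a repressor E2F. E2f2, Rbl1 (p107), Lin9, Mybl1 and Tfdp1 had regions of both WT lists and 1 KO list. Of chromatin and chromosome structure genes, 11 of 54 (20.4%) had a shared region, with the condensin genes Smc2, Smc4, Ncapd2, Ncapg2 and Ncaph among them. Ncapg2 ranked 88, 122, 82 and 86, Ncapd2 190, 111, 77 and 51, and Ncaph 92, 130, 69 and 152. The high mobility group gene Hmgb2 ranked 74, 80, 51 and 123, and the histone variant gene H2az1 174, 68, 31 and 125.

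Centrosome, cilium and nuclear pore genes had 8 of 64 (12.5%), among them Cep57 (23, 42, 11 and 19), Nup37 (24, 23, 41 and 34) and the centriole gene Sass6 (130, 66, 65 and 109). Cell cycle inhibitors had 2 of 22 (9.09%), Cdkn2d (41, 58, 23 and 35), encoding p19Ink4d, and Ccng2 (134, 203, 157 and 166). SWI/SNF genes had 1 of 25 (4%), Brd9, through the promoter it shares with Trip13. No gene of the lists of hepatocyte identity, hepatic metabolism, lymphocytes, macrophages, endothelium, stellate cells or cholangiocytes had one, and none of 6 hepatocyte markers (Alb, Ttr, Apoa1, Hnf4a, Cebpa and Cps1) had an E2f4 region of any class.

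Histone genes formed a further group, chosen after its values were seen. Of 67 linker and core histone genes named by cluster, 13 (19.4%) were at 9 shared regions, 8 of these on chromosome 13, which held 20 shared regions, more than any other chromosome. Besides H3c8 and the H2ac12 and H2bc12 pair, they were H1f2, H2ac7 with H2bc7, H2ac11 with H2bc11, H2bc15, H3c1 with H4c1, H3c3 and H4c14. The H4c1 and H3c1 region ranked 40, 110, 90 and 38. Histone genes are near-identical copies, so how reads of them were placed is uncertain.

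Promoters at shared regions held E2F-type and CHR-type words more often than all promoters did. Of 198 listed promoters (250 bases before to 50 after the start), 46 (23.2%, interval 17.5 to 29.7) held an E2F-type word, against 6.24% of 21263 promoters. A CHR-type word was in 80 (40.4%, interval 33.5 to 47.6), against 16.0% of all promoters. The E2F-type share was 32.3% and 24.4% in the like classes (both WT with 1 KO list, and with none), and the CHR-type share was 26.3% and 20.5%. Without KO replicate 1 the CHR-type share was 31.9%. Both words stood in 10.1% of promoters at shared regions and neither in 46.5%, against 0.861% and 78.6% of all. The CCAAT box (CCAAT) was in 61.6% against 38.2%, and the GC box (GGGCGG) in 66.2% (interval 59.1 to 72.7) against 46.2%. Over promoters of genes with H3K4me2 the CCAAT box was in 37.4% and the GC box in 59.4%, which lies inside that interval. In the like classes the CCAAT box was in 54.9% and 52.2% and the GC box in 74.1% and 77.6%. The 198 promoters come from 171 regions, so overlapping promoters of divergent genes, such as Cdca5 with Zfpl1, count the same word more than once, and the intervals, which treat promoters as separate, are too narrow. All words were searched on both strands. A match is a description and does not show a bound site.

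Counts by group of genes were as follows. Of 42 mitotic promoters 27 (64.3%) held a CHR-type word and 6 (14.3%) an E2F-type word. Of 11 replication promoters 3 held an E2F-type and 3 a CHR-type word, and of 11 repair promoters 4 and 3. These small groups were not tested against each other.

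Both words stood close to the E2f4 centre. Among 152 promoters (136 regions) whose listed stretch holds the centre, 43 held an E2F-type word, the nearest at a median of 11.5 bp, and in 30 it was within 25 bp. In 74 there was a CHR-type word, the nearest at a median of 12 bp, and in 53 it was within 25 bp. Of all matches, 72.4% of E2F-type and 73.4% of CHR-type ones lay within 50 bp of the centre, against 43.8% of CCAAT boxes and 44.2% of GC boxes. The words and the peaks both lie near gene starts, so these shares have that position in common.

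**Figure D3:**
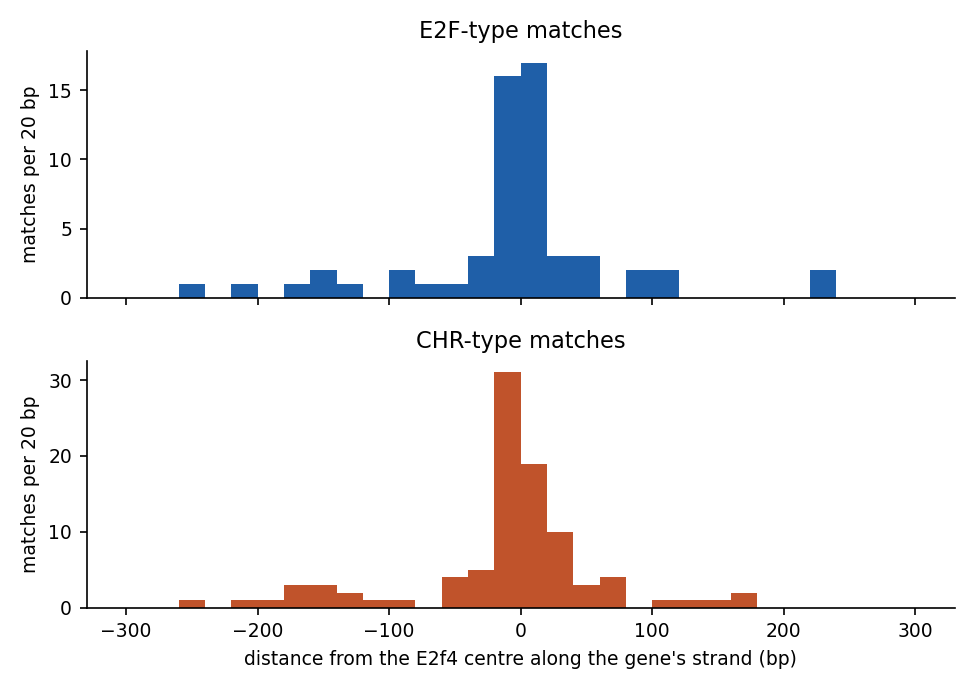
Matches per 20 bp to the E2F-type and CHR-type words by distance from the E2f4 centre, along the gene's strand, in 152 promoters at shared regions. Of the matches, 72.4% and 73.4% lay within 50 bp of the centre.

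H3K27ac covered the centre of more shared regions in KO than in WT. It lay over the centre of 168 of 216 regions (77.8%) in WT and of 206 (95.4%) in KO, and the 38 regions that differed (17.6%) were all covered in KO alone. Over 15130 protein-coding gene starts with H3K4me2, the start was covered in KO alone at 5.60% and in WT alone at 3.05%. In the like classes KO alone covered 34 of 340 (10%) and 13 of 236 (5.51%). Each mark has 1 library per genotype, so these differences have no replicate check and describe the 2 libraries. Fewer cells with a mark and less of it per cell cannot be told apart in such tissue.

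The length covered within 5000 bp of the centre moved the same way. H3K27ac covered more in KO at 172 of 216 regions (79.6%) and less at 44, against 45.9% more and 39.9% less over the marked gene starts. The median difference, KO minus WT, was 442.5 bp, with medians of 1709 bp in WT and 2167 bp in KO. It was 214.5 bp and 62.0 bp in the like classes and 0 over the marked gene starts. The WT list of H3K27ac regions was the longer of the pair, with 63321 against 54652 regions. With lists of equal length the median difference was 453.5 bp. Without KO replicate 1 of E2f4 in the rule it was 324 bp over the larger set. The median fold enrichment of the H3K27ac regions over the centre was 5.8 in WT and 7.5 in KO. At all E2f4 regions it was 6.7 and 7.8. The part of the enrichment of the 2 libraries in the covered length was not tested.

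**Figure D4:**
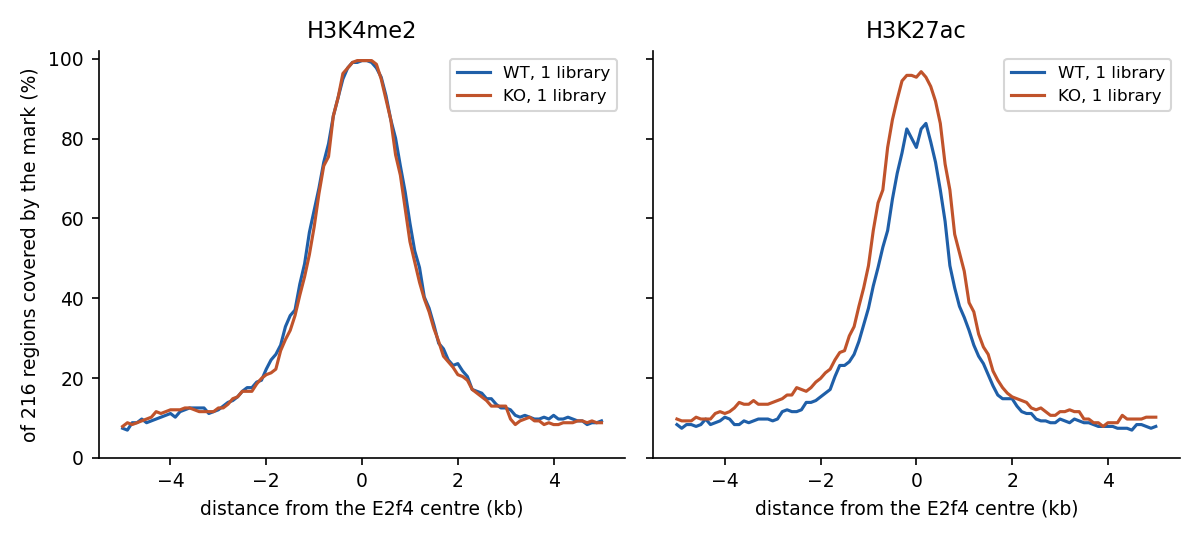
The percentage of the 216 shared regions covered by a called region of H3K4me2 (left) and H3K27ac (right) at each distance from the E2f4 centre, with 1 library per genotype. The H3K4me2 curves lie together, and at the centre H3K27ac covers 77.8% in WT and 95.4% in KO.

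At the E2f4 centre the WT profile of H3K27ac had a dip, with 77.8% covered against 82.4% and 83.8% at 200 bp on either side, and the KO profile had 95.4% against 95.8% and 95.4%. Of the 48 centres uncovered in WT, 4 had H3K27ac within 1000 bp on both sides, 32 on 1 side and 12 on neither. Of the 10 uncovered in KO, these numbers were 1, 8 and 1.

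Mitotic promoters were among those uncovered in WT. Among the uncovered regions of highest rank, Cenpf, a kinetochore gene, had 0 bp of H3K27ac within 5000 bp in WT and 1904 bp in KO. Neil3 had 0 and 858 bp, Bub1 187 and 790 bp, Espl1, encoding separase, 474 and 1342 bp, and Shcbp1 234 and 493 bp. Aurkb had 2375 and 3547 bp, H3c8 4916 and 7602 bp, and Ttf2 356 and 969 bp. Each of these 8 was covered at its centre in KO, because regions uncovered in KO too are listed apart. Pclaf and Gins3, also of high rank, are among the latter.

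The 10 centres uncovered in KO were also uncovered in WT. They were Pclaf (274 bp in WT and 277 bp in KO within 5000 bp), Gins3 (0 and 711 bp), Lrrc49 (0 and 355 bp), Sec11c (1161 and 2598 bp), Hrob (892 and 447 bp), the kinase gene Melk (216 and 947 bp), Nek2 (1701 and 1229 bp), Matn3 (0 and 239 bp), the tRNA region (1090 and 1406 bp) and the region at Mamstr, chr7:45638762-45639068 (7008 and 5780 bp). The Mamstr region was also the only one of the 216 without H3K4me2 over its centre, in both genotypes.

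**Figure D5:**
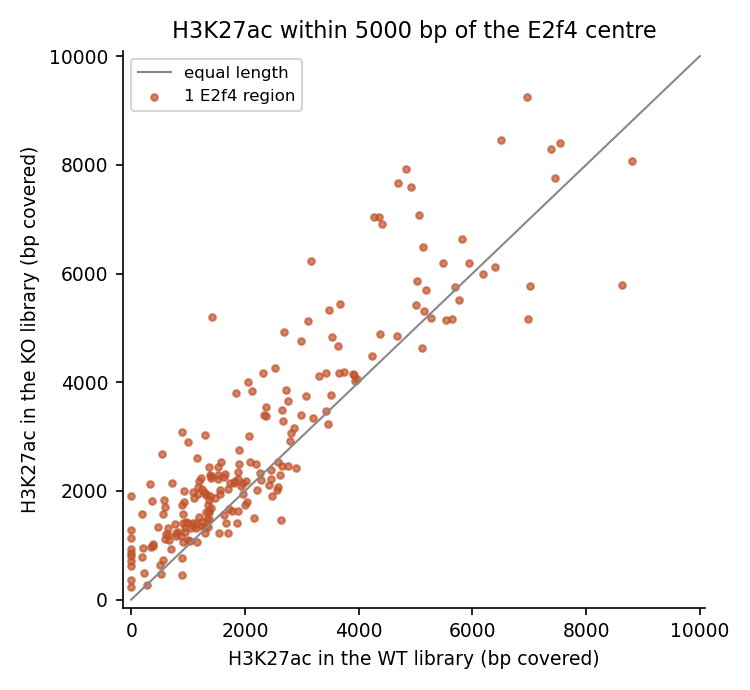
Length covered by H3K27ac within 5000 bp of the E2f4 centre in the WT library (x axis) and the KO library (y axis), 1 point per shared region, with the line of equal length. Above the line lie 172 of 216 regions, and Rrm2, at 1423 and 5195 bp, is the farthest above it.

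The largest excess of H3K27ac in KO was at Rrm2, with 1423 bp in WT and 5195 bp in KO. The H4c1 and H3c1 region followed (4842 and 7925 bp), then the region near H1f5 (3167 and 6224 bp), Vars, a tRNA ligase gene (4696 and 7660 bp), the region at Fam72a and Srgap2 (4277 and 7048 bp) and H3c8. The largest deficit was at E2f8, with 8631 and 5784 bp, followed by H2az1 (6976 and 5163 bp), the Mamstr region, the helicase gene Dhx36 (2632 and 1475 bp), Msh5 (8803 and 8064 bp) and the kinetochore gene Spc25 (2155 and 1498 bp).

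An excess in KO was also present at mitotic genes outside the shared regions. Among mitotic genes with H3K4me2 at the start, H3K27ac covered more in KO at 39 of 48 with a shared region (81.2%), at 35 of 42 with another E2f4 region (83.3%) and at 3 of 5 with none. Among replication genes these counts were 11 of 12, 27 of 40 and 6 of 11, and among repair genes 9 of 13, 27 of 44 and 10 of 19. Over all genes H3K27ac covered more in KO at 78.8% of 245 with a shared region, at 58.6% of 1453 with another E2f4 region and at 43.9% of 13432 with none. The medians of the difference were 442, 135 and 0 bp.

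H3K4me2 lay over the centre of 215 of the 216 shared regions in both genotypes. The median fold enrichment of the H3K4me2 regions over the centre was 7.45 in WT and 9.88 in KO. At all E2f4 regions it was 7.46 and 9.28. Within 5000 bp H3K4me2 covered less in KO at 123 shared regions (56.9%) and more at 92. Over the marked gene starts it covered less at 39.1% and more at 60.6%. The median difference was −60.5 bp at the shared regions, against 138 bp over the marked gene starts. The medians of the like classes were −50.5 bp and 39.5 bp. The KO list of H3K4me2 regions was the longer, with 73042 against 66832. The largest deficits in KO were at Tcf3 (7681 and 5284 bp in WT and KO), Pcna (6774 and 4716 bp), Vars (6792 and 4846 bp), H3c8 (7698 and 6042 bp), Bard1 (4158 and 2538 bp) and Aunip (2507 and 1028 bp). The largest excesses were at Hrob (1497 and 3123 bp), the Mamstr region (2224 and 3764 bp), the H2ac12 and H2bc12 pair (6318 and 7524 bp), Tyw1 (3963 and 5046 bp), Mxd3 (1803 and 2774 bp) and the Fmo1 region (3685 and 4589 bp). At H3c8 and at Vars H3K27ac covered more and H3K4me2 less in KO, and at Hrob and the Mamstr region it was the reverse. These are examples and not a full list of such regions.

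Hepatocyte genes carried both marks in both genotypes, at 6 of 6 markers, with 1215 to 2001 bp of H3K4me2 and 1599 to 2001 bp of H3K27ac within 1000 bp. Of 5 lymphocyte markers 4 had H3K4me2 in WT (0 to 1725 bp) and 1 in KO (0 to 211 bp), and 2 and 1 had H3K27ac (0 to 1714 and 0 to 1716 bp). In KO the lymphocyte markers Cd2, Cd3e and Cd79b were at 0 for both marks. In the longer lymphocyte list 9 genes had H3K4me2, and within 5000 bp it covered less in KO at all 9. Their median differences were −3712 bp for H3K4me2 and 0 for H3K27ac. All 5 macrophage markers had H3K27ac in both genotypes, and 3 of 5 had H3K4me2 in WT (Clec4f and Timd4 at 0) and 5 of 5 in KO. In the longer macrophage list, 9 of which had H3K4me2, the median differences were −910 bp for H3K4me2 and −9 bp for H3K27ac. All 5 endothelial markers had both marks in both genotypes. In the longer list of 12 endothelial genes, H3K27ac within 5000 bp of the start covered less in KO at 9 (median difference −1078.5 bp), and the median difference of H3K4me2 was 1528.5 bp. H3K27ac was at 4 of 4 stellate cell markers in WT and 3 of 4 in KO, where Col1a1 was at 0, whereas H3K4me2 was at 3 of 4 in WT, with Des at 0, and 4 of 4 in KO. In the longer list of stellate cell genes, 11 of which had H3K4me2, the median differences were −322 bp for H3K27ac and 758 bp for H3K4me2. H3K27ac was at 1 of 4 cholangiocyte markers in WT (Sox9) and 0 of 4 in KO. In the longer cholangiocyte list, 6 of which had H3K4me2, the median differences were −38.5 bp for H3K27ac and 508 bp for H3K4me2. The part of other cell types in the differences of the marks was not tested.

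Across the 216 regions some features above were graded with the strength of the E2f4 peaks and others were not. With the regions split by mean rank into 3 sets of 72, a mitotic gene stood at 27 of the strongest, 16 of the middle and 5 of the weakest. CHR-type words were in 50%, 43.9% and 25.8% of their promoters and E2F-type words in 27.1%, 24.2% and 17.7%. Shared promoters numbered 21, 10 and 9. The median range of the summits was 16, 27 and 38.5 bp. H3K27ac covered more in KO at 61, 61 and 50 regions, with a median difference of 608, 444 and 309.5 bp. H3K27ac over the centre was not graded, with 58, 54 and 56 regions covered in WT and 69, 69 and 68 in KO. H3K4me2 covered less in KO at 41, 45 and 37 regions, with medians of −72.5, −115 and −18.5 bp. The rank comes from the calls that chose the regions, so these values are a description. Ranks were averaged without scaling to the length of the lists, so high ranks in the longer lists weigh more in the mean.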

How the data were processed

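Bowtie2 2.2.3, Picard, MACS2 2.0.10.20131216, HOMER and build mm10 are named without roles in the submitters' processing notes. The deposited lists, 1 per library, give each peak's position, fold enrichment (a ratio to background), −log10 p-value and q-value, a score of 10 times the −log10 q-value (not used) and, for E2f4, a summit offset. Of 16 samples, 8 are inputs, not used here. How inputs were used in peak calling is not given in the sources read here. Without counts in the lists, depth is unknown.

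Peaks overlapping by 1 bp or more were merged, each list was ranked by −log10 q-value, and the centre is the median summit. Gene starts came from RefSeq promoters (GRCm38.p6, 17492 protein-coding genes) and, for genes without one, from both annotated ends. Exons and introns were not analysed. Histone coverage is the length of called regions in a window. Of 554 entries in 16 gene lists, 551 matched the table. No test was made, because regions are not replicates and the marks have 1 library per genotype. Members and lists were chosen with earlier results of these data known.

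Named were the 12 strongest and 5 weakest regions, 3 just inside and 3 just outside the rule, regions over 10000 bp from a gene, up to 6 genes per list, up to 12 shared promoters, up to 10 uncovered centres and up to 6 extremes of each mark in each direction. Other names were chosen after their values were seen. Sequences shown are among the strongest of each motif class. Alternatives were stricter q-values, other windows and overlaps, lists of equal length and E2f4 libraries left out in turn. Merging, classes and coverage were tested on simulated data. Python 3.11.15, pandas 2.3.3, numpy 2.4.6 and SciPy 1.17.1 were used.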

Additional observations from a re-analysis of the deposited data

How the results depend on the processing

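The number of shared regions was 121 with E2f4 peaks of −log10 q-value 10 or more and 216 to 552 when 1 E2f4 library was left out, the highest without KO replicate 1. The genes at them numbered 144 at that q-value and 245 to 606 with 1 library left out. The share at a gene start was 90.7% within 500 bp and 98.6% within 5000 bp, and the share at a shared promoter 13.4% and 27.8%, or 30.6% with all genes of the table counted. H3K27ac over the centre was at 59.3% in WT and 90.3% in KO with mark regions of −log10 q-value 5 or more, and at 91.7% and 99.5% within 250 bp of the centre, so that the sets differed less with the wider position. The median difference of H3K27ac was 255.5 bp within 1000 bp, 609 bp at the stricter q-value and 324 to 442.5 bp with 1 E2f4 library left out, and that of H3K4me2 was 0 within 1000 bp. The E2F-type share was 31.2% for E2f4 peaks of −log10 q-value 10 or more. No difference changed sign under any alternative run. Of the main results, 89 values stayed within their counting interval or 1.5 times their count and 18 did not. The outer gene ends, the 250 bp position and the set of 4 E2F words were added after seeing the data. With those 4 words the E2F-type share was 18.7%, against 2.85% of all promoters, and against promoters with H3K4me2 the shares for all genes were 7.73% and 12.3% for the E2F-type and CHR-type words. No paired analysis was possible because no result comes from a test and each mark has 1 library per genotype. Depth is unknown, and E2f4 may have been present where no peak was called.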

Other observations

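Most genes at the shared regions, 141 of 245, stood outside the 16 lists, and the strongest of them were chosen here after their values were seen. Ahctf1, which seeds nuclear pores on chromatin, ranked 6, 14, 38 and 22 (WT replicates 1 and 2, KO replicates 1 and 2). Pclaf ranked 33, 16, 5 and 24, and Mcph1, the microcephaly gene microcephalin, ranked 57, 24, 20 and 28. Rcc1, the exchange factor of Ran, ranked 62, 11, 44 and 100. Ticrr, which helps to fire replication origins, ranked 49, 60, 101 and 97, and Hjurp, the chaperone of the centromeric histone, ranked 59, 67, 136 and 66. Hinfp, a transcription factor of histone H4 genes, ranked 112, 69, 55 and 78, and Nsd2, a histone H3 methyltransferase, ranked 85, 144, 86 and 81. Hikeshi, a nuclear import carrier of Hsp70, ranked 35, 51, 28 and 41.

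In 10 shared regions H3K27ac was listed at 0 bp within 5000 bp in WT, and each had some in KO. Besides Cenpf, Neil3, Gins3, Lrrc49 and Matn3, these were the Kif14 region (1286 bp in KO), Cdc25c (1136 bp), a phosphatase that activates Cdk1, Cenph (802 bp), Mybl2 (625 bp) and Sdk1 (934 bp). Summits of the 4 libraries were spread over more than 100 bp at Hmgb2 (142 bp), Brip1 (115 bp), Atad2 (235 bp), E2f8 (105 bp), Kmt5a (104 bp), Zcwpw1 (112 bp) and Zc3hav1 (125 bp), besides Ran.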
